A study of Mus musculus with 2 samples.

Results

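The genes described here are those through which cells receive interferons and pass the signal on: the receptor chains Ifnar1, Ifnar2, Ifngr1 and Ifngr2, the kinases Jak1, Jak2 and Tyk2, the transcription factor Irf1 and the inhibitor Socs1. They were taken by symbol from a list, and all 9 were found among the 22620 genes of the count tables. The counts come from 2 single-cell RNA sequencing libraries of C57BL/6J mice bearing tumours of EO771-HEVM3 cells, a mouse breast cancer line that was passed through animals in repeated rounds. 1 library was made from primary tumours and 1 from lymph nodes, each from the tissue of 6 mice pooled before sequencing, and no treatment is named for either. No label assigns cells to mice, so each tissue counted as 1 sample. Differences between the libraries therefore could not be tested, and the intervals given below are 95% intervals for counting error only. Tumours were digested for 2 h and lymph nodes for 1 h, with different enzymes, so that tissue and digestion cannot be told apart.

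Type I interferons bind a receptor built of Ifnar1 and Ifnar2, which carry the kinases Tyk2 and Jak1, and interferon gamma, the type II interferon made by T and NK cells, binds a receptor built of Ifngr1 and Ifngr2, which carry Jak1 and Jak2. The kinases phosphorylate STAT proteins, which enter the nucleus. STAT dimers bind GAS elements, among them one long known in the promoter of Irf1, while complexes with Irf9 bind interferon-stimulated response elements (ISREs). Irf1 in turn switches on genes of antigen presentation, and Socs1, itself induced by interferons, binds the kinases and shuts the pathway down.

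In the GRCm38 build, 3 of the 4 receptor genes lie within 193 kb on the plus strand of chromosome 16, namely Ifnar2 (chr16:91372783-91405589), Ifnar1 (chr16:91485238-91507441) and Ifngr2 (chr16:91547072-91565623). Socs1 (chr16:10782240-10785536, minus strand) lies 80.6 Mb from them on the same chromosome. Ifngr1 was annotated at chr10:19591949-19610229, Jak1 at chr4:101152367-101265282, Jak2 at chr19:29251828-29313080, Tyk2 at chr9:21104068-21131243 and Irf1 at chr11:53770014-53778374. Ifnar2 shares its position and strand with the readthrough model Gm21970, so reads of these 2 models may be split in the counts. The upstream sequences of Irf1 and Socs1 are shown because these were the 2 genes of the 9 whose levels differed most between the cancer cells of the 2 libraries. They are the 250 bases before the RefSeq start of each gene (GRCm38.p6), written along the gene's strand, for Irf1 at chr11:53769764-53770013 on the plus strand and for Socs1 at chr16:10785537-10785786 on the minus strand. Capitals mark matches to the GAS pattern TTCNNNGAA in Irf1 and to the ISRE core GAAANNGAAA in Socs1.
Irf1: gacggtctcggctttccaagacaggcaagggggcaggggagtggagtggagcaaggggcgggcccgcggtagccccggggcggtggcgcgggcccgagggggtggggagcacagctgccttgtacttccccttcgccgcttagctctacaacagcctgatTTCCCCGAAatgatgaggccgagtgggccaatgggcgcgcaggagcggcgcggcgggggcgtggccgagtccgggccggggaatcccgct
Socs1: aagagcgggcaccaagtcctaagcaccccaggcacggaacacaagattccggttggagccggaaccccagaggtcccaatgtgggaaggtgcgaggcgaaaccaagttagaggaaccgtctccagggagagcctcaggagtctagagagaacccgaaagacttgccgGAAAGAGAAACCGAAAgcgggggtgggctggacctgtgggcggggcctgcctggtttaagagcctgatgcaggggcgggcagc
The GAS match in Irf1 spans positions -90 to -82 from the start, and the 2 matches in Socs1, at -83 to -74 and -77 to -68, overlap each other. Searched for on both strands, TTCNNNGAA occurred in 7.01% and GAAANNGAAA in 2.97% of all 32817 upstream windows of the same length. Ifnar2 also held a GAS match, at -214 to -206, and the other 6 genes held neither pattern. These are matches of letters and no measure of binding.

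After filtering, 8756 primary tumour cells and 9689 lymph node cells were kept, with a median of 9383 and 2324 UMIs per cell. UMIs (unique molecular identifiers) count single captured RNA molecules. Clusters were named from marker genes, which gave 6094 cancer cells in the tumour library and 607 in the lymph node library, and all 7 epithelial markers used for that name had UMIs in both, with a sum of 4374 and 4973 CPM. Levels are given as CPM, the UMIs of a gene per 1000000 UMIs of all cells of that class in that library. The cancer cells summed to 96570685 UMIs in the tumour and 20361358 in the lymph node, with a median of 14016 and 35073 per cell. Cell barcodes kept in both libraries numbered 31, of which 4 were lymph node cancer cells, and leaving them out changed neither count of genes past 2-fold in cancer cells.

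Among the receptor chains, levels in the cancer cells of the 2 tissues lay within 1.25-fold of each other. Ifngr1, the chain that binds interferon gamma, was at 78.6 CPM (7592 UMIs) in the tumour and 97.4 CPM (1984 UMIs) in the lymph node, a log2 ratio of 0.31 (0.24 to 0.38). Ifngr2, its signalling partner, was at 46.3 CPM in the tumour and 39.3 CPM in the lymph node (log2 ratio -0.23, -0.35 to -0.13). The type II chains thus stood apart by little, and the directions did not hold in all cells, as Ifngr1 was at -0.01 and Ifngr2 at 0.12 in cluster 7, a cluster of cancer cells described below. Ifnar1, the signalling chain of the type I receptor, was at 22.3 CPM in the tumour and 17.7 CPM in the lymph node (log2 ratio -0.33, -0.49 to -0.17). Ifnar2, the chain with the higher affinity for type I interferons, was at 28.1 and 30.6 CPM in that order, and its interval spanned 0 (log2 ratio 0.12, -0.01 to 0.25). In cluster 7 alone Ifnar2 was at 24.6 CPM in the tumour and 40.8 CPM in the lymph node, and its interval lay above 0 (log2 ratio 0.74, 0.23 to 1.19).

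The kinases likewise stayed within 1.34-fold. Jak1, which serves both receptors, was at 60.6 CPM in tumour cancer cells and 70.4 CPM in lymph node cancer cells (log2 ratio 0.22, 0.13 to 0.30). Jak2, the partner of Jak1 at the interferon gamma receptor, was at 81.5 and 66.2 CPM (log2 ratio -0.30, -0.38 to -0.22). Tyk2, which serves the type I receptor, had the lowest level of the 3 kinases in both tissues, at 7.12 CPM (688 UMIs) in the tumour and 5.30 CPM (108 UMIs) in the lymph node (log2 ratio -0.42, -0.73 to -0.13). Counts were of 3′ ends, so no value was divided by gene length.

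Irf1 and Socs1 were both lower in lymph node cancer cells. Irf1, the first factor that interferon gamma switches on, was at 143 CPM (140.3 to 145; 13781 UMIs) in the tumour and at 57.5 CPM (54.2 to 60.9; 1170 UMIs) in the lymph node, which was 2.48-fold lower (log2 ratio -1.31, -1.40 to -1.23). Socs1, the feedback inhibitor, was at 18.1 CPM (17.2 to 18.9; 1746 UMIs) in the tumour and 5.01 CPM (4.08 to 6.08; 102 UMIs) in the lymph node, 3.59-fold lower (log2 ratio -1.85, -2.15 to -1.56). The plot of levels in cancer cells shows that these were the only 2 genes of the 9 with a gap of this size between tissues.

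**Figure D1:**
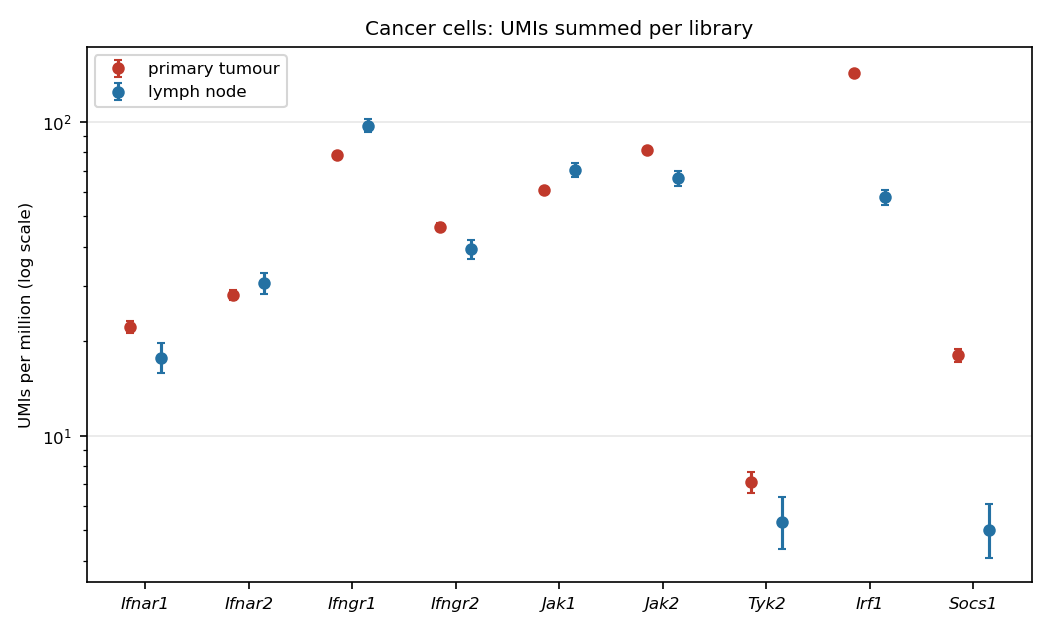
Levels of the 9 genes in cancer cells of the primary tumour and the lymph node library, in CPM on a log axis, with bars for the 95% interval of counting error. Irf1 (143 against 57.5 CPM) and Socs1 (18.1 against 5.01 CPM) were apart by over 2-fold, and the other 7 genes lay close together.

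Set against the transcriptome, 2 of the 9 genes were at least 2-fold lower in lymph node cancer cells, where 8.20% of the 10204 genes compared (mean of at least 2 CPM) were, and 0 of 9 were at least 2-fold higher, where 5.10% were. Irf1 had a lower ratio than all but 3.80% of these genes, and Socs1 than all but 1.61%. The median log2 ratio was -0.30 over the 9 genes and -0.17 over all genes compared. Intervals lay below 0 for 6 of the 9 genes and above 0 for 2. The matching shares over all genes compared are not given here, so these counts are not read as particular to the 9 genes. Without replicate libraries the spread between mice is unknown, and the small ratios of the receptor chains and kinases rest on counting error alone.

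**Figure D2:**
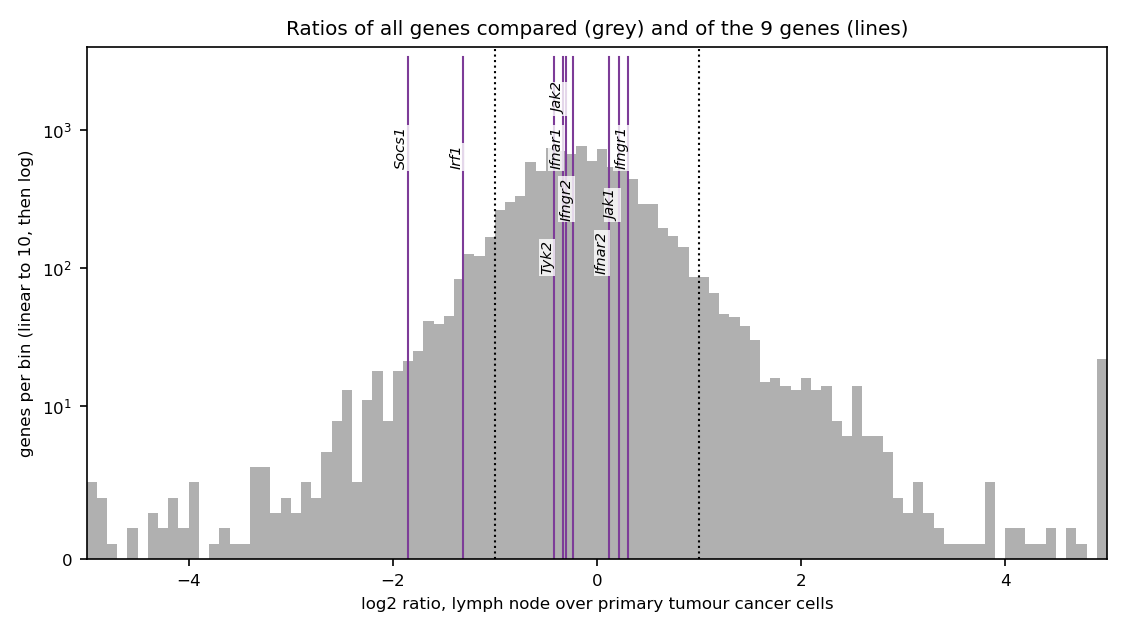
Histogram of the log2 ratios (lymph node over primary tumour, cancer cells) of the 10204 genes compared (genes per bin, linear up to 10 and then on a log axis), with ratios beyond 5 in either direction placed at the ends, vertical lines for the 9 genes and dotted lines at 2-fold. Irf1 (-1.31) and Socs1 (-1.85) lie in the lower tail, and the other 7 lie between -0.42 and 0.31.

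The same 2 genes were lower when each cell was thinned to 1000 UMIs, which sets the cells of both libraries to 1 depth and leaves out 82 tumour and 3 lymph node cancer cells. A UMI of Irf1 was then expected in 13.0% of tumour and 5.60% of lymph node cancer cells, and a UMI of Socs1 in 1.71% and 0.496%. For the other 7 genes these shares lay closer, from 0.727% and 0.650% for Tyk2 to 7.78% and 6.83% for Jak2 and 7.73% and 9.24% for Ifngr1. Without thinning, 32.6% of tumour and 29.7% of lymph node cancer cells had no Irf1 UMI, so that the unthinned share did not show the difference that the CPM did. The lymph node cancer cells carried more UMIs per cell. Socs1 was missing from 82.0% and 87.1% of cells in that order. Of the 102 lymph node UMIs of Socs1, 1 cell held 11. Without that cell, and without the highest tumour cell, the log2 ratio of Socs1 was -1.99. None of the cell classes is known to lack Irf1 or Socs1, so there was no class in which the share from free RNA could be read.

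Receptor function needs both chains in 1 cell. After thinning to 1000 UMIs, a UMI of both Ifngr1 and Ifngr2 was expected in 0.406% (0.261 to 0.601) of tumour cancer cells and 0.382% (0.0570 to 1.27) of lymph node cancer cells. For Ifnar1 and Ifnar2 these shares were 0.0603% and 0.0588%, beside 11% in plasmacytoid dendritic cells of the lymph node. Unthinned, the shares with both type II chains were 33.3% in the tumour and 59.3% in the lymph node, and with both type I chains 11.2% and 27.5%. The gap between tissues seen without thinning was thus not seen at equal depth, and at 1000 UMIs a share below 1% describes capture and not how many cells carry the receptor.

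Cancer cells were not alike within a library, and the tissues divided them into different clusters. Of the 607 lymph node cancer cells, 515 lay in clusters 15 and 17, which held 3 tumour cells together, and 92 lay in 5 clusters that held tumour cells too. Clusters with at least 20 cells of a library were compared. In the 6 of the tumour, Irf1 ranged from 78.3 CPM in cluster 7 to 185 CPM in cluster 1 and Socs1 from 6.71 CPM in cluster 6 to 26.2 CPM in cluster 9. In the lymph node, Irf1 was at 64.3 CPM in cluster 15, at 46.3 CPM in cluster 17, whose cells carried the proliferation gene Mki67 at 253 CPM, and at 56.0 CPM in cluster 7. Each of these 3 lymph node clusters was thus below each of the 6 tumour clusters for Irf1, with cluster 7 lowest in the tumour. For Socs1 this was not so, as lymph node cluster 7 was at 10.4 CPM, above tumour cluster 6, while clusters 15 and 17 were at 3.81 and 4.43 CPM. The receptor chains and kinases varied less between tumour clusters, by 1.33-fold for Ifngr1 and at most 2.00-fold, for Jak2.

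**Figure D3:**
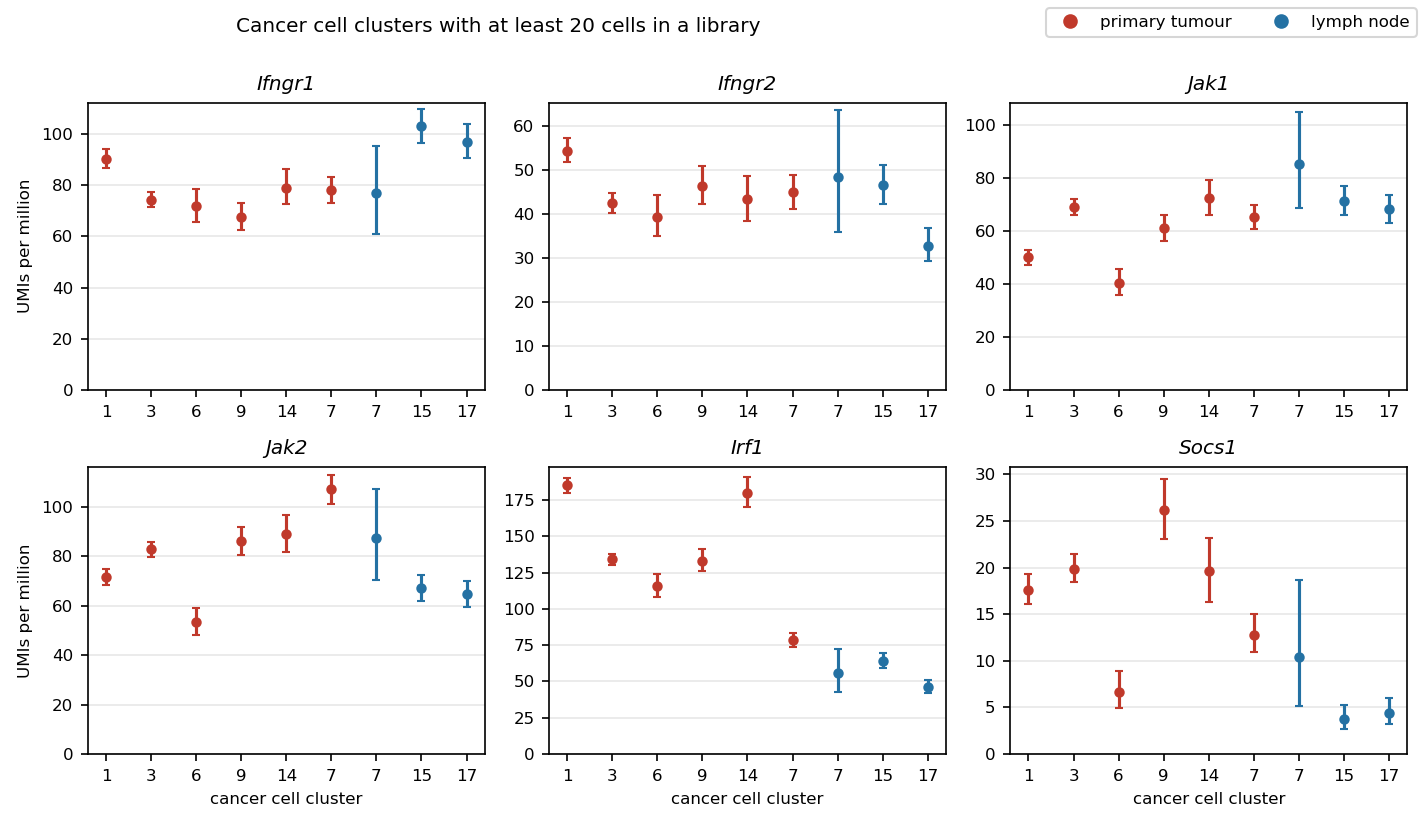
Levels (CPM, linear axes from 0, 95% counting interval) of Ifngr1, Ifngr2, Jak1, Jak2, Irf1 and Socs1 in each cancer cell cluster with at least 20 cells, tumour clusters on the left and lymph node clusters on the right. Irf1 is at 64.3 and 46.3 CPM and Socs1 at 3.81 and 4.43 CPM in clusters 15 and 17 of the lymph node, and Ifngr1, Jak1 and Jak2 vary by at most 2.00-fold across the tumour clusters.

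Within the lymph node, Irf1 and Socs1 were lower in the pooled cells of clusters 15 and 17 than in the pool of the others. In these 515 cells Irf1 was at 55.3 CPM and Socs1 at 4.12 CPM. In the 92 lymph node cells of shared clusters Irf1 was at 78.5 CPM and Socs1 at 13.5 CPM. Within the lymph node library, the first set was therefore lower than the second. The log2 ratio was -0.51 (-0.75 to -0.25) for Irf1 and -1.73 (-2.37 to -1.01) for Socs1. Of the 92 cells, the 47 of cluster 7 had Irf1 at 56.0 CPM (42.6 to 72.2), close to the 55.3 CPM of clusters 15 and 17. For Irf1 the difference between the pools thus did not hold against cluster 7. Against all tumour cancer cells, the 92 cells gave a log2 ratio of -0.86 (-1.10 to -0.63) for Irf1, under 2-fold, and -0.39 (-1.04 to 0.14) for Socs1, an interval that spans 0. Cluster 7, the only cancer cluster with at least 20 cells in each library (851 tumour and 47 lymph node cells), gave -0.47 (-0.89 to -0.10) for Irf1 and -0.24 (-1.33 to 0.58) for Socs1. With either set alone, 0 of the 9 genes were 2-fold lower. These sets were chosen after their values were seen.

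The sum of the 16 listed genes that interferon gamma induces was also lower in clusters 15 and 17, at 364 CPM. It was 1183 CPM in the other lymph node cancer cells and 1352 CPM in tumour cancer cells. Of this list, Gbp2, Igtp and Psmb9, described below, were still lower in the other lymph node cancer cells than in tumour cancer cells. Their log2 ratios were -2.70 (-3.22 to -2.25), -1.82 (-2.21 to -1.48) and -0.65 (-0.90 to -0.43). In cluster 7 the sum of the 16 genes was not lower in the lymph node, at 939 CPM in the tumour and 1155 CPM in the lymph node. Ifngr1 went the other way within the lymph node, higher in clusters 15 and 17 by a log2 ratio of 0.47.

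Other features of the cells also differed between these sets of cells. Immediate-early genes, which respond within minutes to stress and to tissue digestion, summed over 13 genes to 3783 CPM in tumour and 1733 CPM in lymph node cancer cells, with Fos at 315 and 81.1 CPM and Egr1 at 514 and 177 CPM. Their sum was 1439.8 CPM in clusters 15 and 17 and 4544 CPM in the other lymph node cancer cells. Tumour cluster 3 had a sum of 1124 CPM, below both lymph node clusters, with Irf1 at 134 CPM and Socs1 at 19.9 CPM. The sum and Irf1 did not run together over all tumour clusters. Irf1 was at 78.3 CPM in cluster 7, beside a sum of 5771 CPM, and at 179.9 CPM in cluster 14, beside 1669.9 CPM. In cluster 1 both were high, with Irf1 at 185 CPM and a sum of 5543 CPM. The markers of T cells, all 6 with UMIs in both, summed to 26.1 CPM in tumour and 83.0 CPM in lymph node cancer cells, those of B cells (5 of 5) to 3.39 and 35.3 CPM and those of erythroid cells (4 of 4) to 162 and 427 CPM. A UMI of the leukocyte gene Ptprc was found in 2.48% of tumour cancer cells (median 14016 UMIs), in 20.8% of the lymph node cells of clusters 15 and 17 and in 16.3% of the other lymph node cancer cells. With only cells that lacked a Ptprc UMI, and with only cells of 10000 to 40000 UMIs, Irf1 and Socs1 were still over 2-fold lower in the lymph node. The part of the immediate-early genes in the result was not tested.

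The rest of the pathway was described from lists. Of 16 genes that interferon gamma induces, 16 had a log2 ratio below 0 in cancer cells. The share of all genes compared below 0 is not given here, and their median was -0.17. Of the 16 genes, 14 were at least 2-fold lower in lymph node cancer cells, where 8.20% of all genes compared were. The median log2 ratio of the 16 was -2.16. Gbp2, a GTPase that acts against intracellular pathogens, was at 126 CPM in the tumour and 2.50 CPM in the lymph node (log2 ratio -5.64), and Psmb9, a subunit of the immunoproteasome, at 122 and 19.9 CPM (-2.61). Igtp, another interferon-induced GTPase, had a log2 ratio of -4.20 and Ciita, the master regulator of MHC class II genes, of -3.60. Ciita, 1 of the 14, passed the filter of 2 CPM only through the tumour (6.82 CPM, against 0.540), so it is not read against the share of all genes. In cluster 7 alone, computed for 3 of the 4, the log2 ratios were -0.03 (-0.77 to 0.59) for Gbp2, 0.03 (-0.37 to 0.40) for Psmb9 and 0.60 (0.05 to 1.08) for Igtp. Among the tumour clusters compared, cluster 7 had the lowest level of each of these 3. Gbp2 was at 20.7 CPM in it, Igtp at 23.4 CPM and Psmb9 at 58.8 CPM, the last close to cluster 6 (59.4 CPM).

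Of 11 STAT and IRF factors compared, 3 were at least 2-fold lower in lymph node cancer cells (8.20% of all genes) and 0 higher (5.10%), with a median log2 ratio of -0.24. Stat2, which binds ISREs together with Irf9, was at 45.4 CPM in the tumour and 6.29 CPM in the lymph node (log2 ratio -2.85). In cluster 7 alone its log2 ratio was 0.61, with an interval that spans 0 (-0.11 to 1.21). With lymph node cells of shared clusters only, the log2 ratio of Stat2 was -1.14 (-1.66 to -0.71). The other 2 were Irf9 itself (-1.97) and Irf7 (-2.68), which amplifies type I interferon production. Stat3, which signals for the interleukin 6 family, was within 2-fold (-0.85). Of 17 genes listed as negative regulators, 4 were at least 2-fold lower and 0 higher, against the same shares, with a median of -0.94. These were the ubiquitin-like modifier Isg15 (-2.14), the cytokine signalling inhibitors Cish (-1.79) and Socs7 (-1.51), and Pias3 (-1.20), an inhibitor of STAT proteins.

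Among 9 other receptor chains and kinases compared, 3 were at least 2-fold lower (8.20% of all genes) and 1 higher (5.10%), with a median of -0.48. The lower ones were Osmr (-1.52), the oncostatin M receptor chain, Ifnlr1 (-1.36), a chain of the type III interferon receptor, and Il6st (-1.20), the shared chain of the interleukin 6 family. Il2rg, the gamma chain of lymphocyte cytokine receptors, was higher (1.72), beside the higher sum of T cell markers in the same cells. Ifnlr1 passed the filter of 2 CPM only through the tumour (4.35 CPM, against 1.67) and Il2rg only through the lymph node (6.38 CPM, against 1.95), so neither is read against these shares. No interferon gene reached 2 CPM in cancer cells, and 17 of 21 had 0 UMIs in both tissues. Interferon gamma RNA was found in other classes, where Ifng was at 262 CPM in tumour T cells, 121 CPM in tumour NK cells, 17.6 CPM in lymph node T cells and 289 CPM in lymph node NK cells. Ifnb1, a type I interferon, was at 13.5 CPM in tumour macrophages (40 UMIs) and 18.9 CPM in tumour monocytes (30 UMIs).

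Across all classes with at least 20 cells, 9 in the tumour and 11 in the lymph node, each gene had its own pattern. Cells are compared here by 1 gene at a time on the CPM scale. Cancer cells had the lowest Jak1 level in both libraries, and in the tumour also the lowest Ifnar1 and Jak2 levels. For Jak1 the next class was fibroblasts in the tumour (176 CPM), with an interval that did not overlap that of cancer cells, and plasma cells in the lymph node (86.0 CPM), with one that did. In the tumour, the interval of cancer cells lay below all others for Ifnar1 and overlapped those of fibroblasts and NK cells for Jak2.

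**Figure D4:**
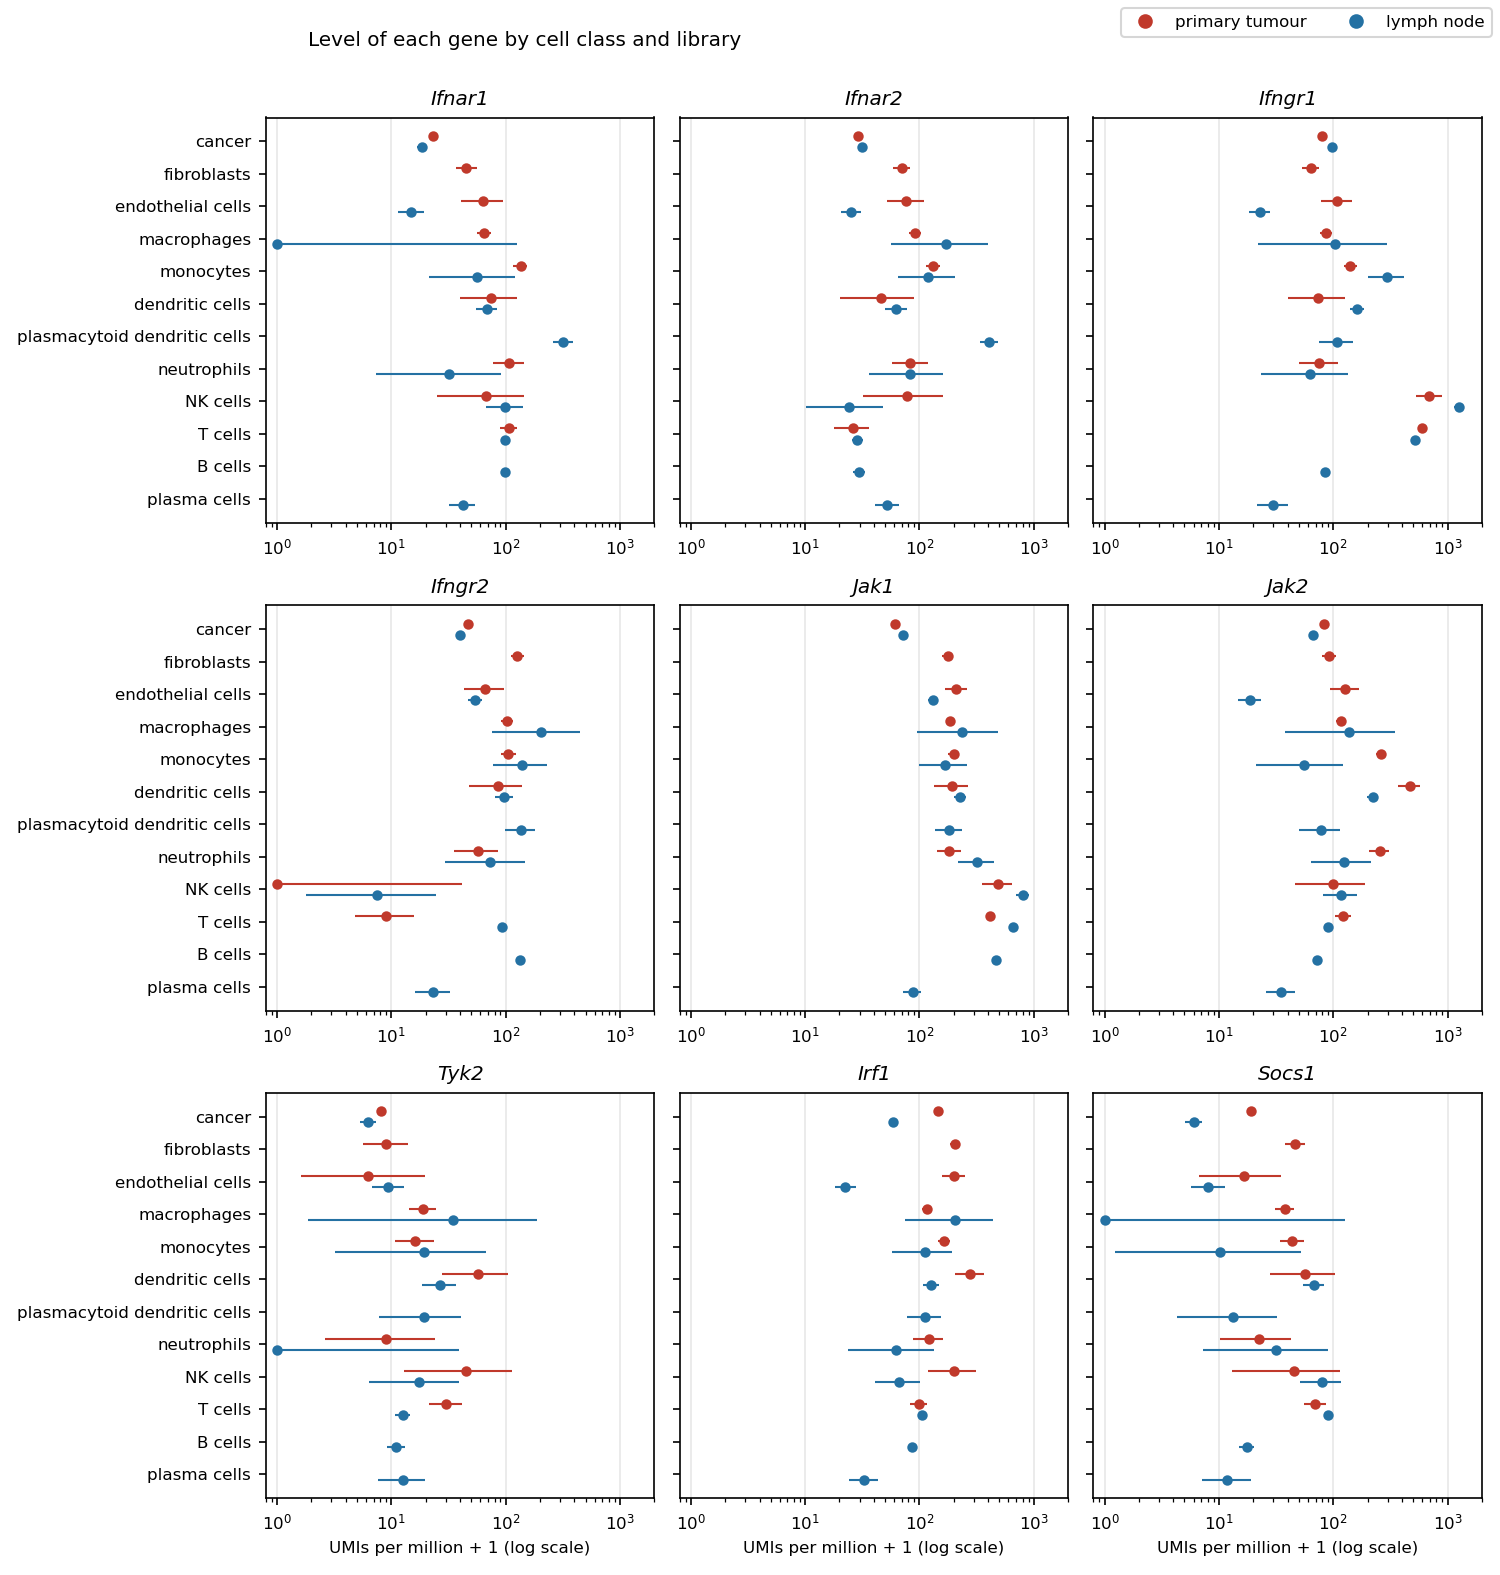
Levels of the 9 genes (CPM plus 1, log axis) in each cell class with at least 20 cells, tumour and lymph node library side by side, with bars for the 95% counting interval. Plasmacytoid dendritic cells of the lymph node stand highest for Ifnar1 and Ifnar2, and T and NK cells for Ifngr1 and Jak1.

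The type I chains were highest in plasmacytoid dendritic cells of the lymph node, the main producers of type I interferons, with Ifnar1 at 318 CPM (260.1 to 386) and Ifnar2 at 407 CPM (341 to 482; 65 cells). For Ifnar1 the next class, NK cells at 98.5 CPM, did not overlap, while for Ifnar2 the interval of the 21 macrophages (54.9 to 395 CPM) did. In the tumour, monocytes led for both chains, with Ifnar1 at 134 CPM and Ifnar2 at 131 CPM, with intervals that overlapped those of neutrophils and NK cells for both chains and of T and dendritic cells for Ifnar1. The chains differed in T and B cells. T cells had Ifnar1 at 106 CPM in the tumour and 97.9 CPM in the lymph node but Ifnar2 at 27.7 CPM in the lymph node, and lymph node B cells had them at 98.4 and 28.6 CPM.

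Ifngr1 was highest in NK cells, at 693 CPM in the tumour (35 cells) and 1265 CPM in the lymph node (98 cells), and then in T cells, at 601 and 519 CPM. The next class was monocytes, at 139.9 and 293 CPM. Ifngr2 was ordered otherwise. In the tumour it was highest in fibroblasts (126 CPM), monocytes (105 CPM) and macrophages (102 CPM), which overlapped in sequence, and lowest in T cells (8.06 CPM, 10 UMIs) and NK cells (0 of 90914 UMIs, which allows up to 33.0 CPM by the limit of 3 counts). Lymph node B cells had 133 CPM of it, T cells 91.6 CPM and NK cells 6.57 CPM. NK cells thus had the highest Ifngr1 and the lowest Ifngr2 level in either library, with intervals that overlapped those of T cells in the tumour for both genes. In the lymph node the 2 UMIs of Ifngr2 in NK cells were below the limit of 3 counts, and their interval (0.796 to 23.7 CPM) overlapped that of plasma cells.

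Jak1 was highest in the same lymphocytes as Ifngr1, at 484 CPM in tumour and 798 CPM in lymph node NK cells and at 415 and 651 CPM in T cells. Jak2 was highest in dendritic cells, which present antigen to T cells, at 466 CPM (371 to 578) in the tumour, above monocytes at 262 CPM, and 219.8 CPM in the lymph node. Tyk2 was low throughout, with 56.1 CPM in tumour and 25.6 CPM in lymph node dendritic cells, and its neighbouring classes overlapped along the whole order in both libraries. Lymph node endothelial cells had the lowest Jak2 level of that library, at 17.6 CPM.

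Irf1 was highest in tumour dendritic cells at 275 CPM (204 to 364), which overlapped fibroblasts (203 CPM), endothelial cells (201 CPM) and NK cells (198 CPM), and was lowest in tumour T cells at 97.5 CPM. Lymph node dendritic cells had 126 CPM and T cells 105 CPM of it, and lymph node endothelial cells were lowest at 21.5 CPM, below cancer cells at 57.5 CPM. Socs1 was highest in T cells, at 68.5 CPM in the tumour and 88.6 CPM in the lymph node, beside dendritic cells (56.1 and 66.8 CPM) and NK cells (44.0 and 78.8 CPM). The intervals of T cells overlapped those of both classes in the tumour and that of NK cells alone in the lymph node. B cells had less Socs1, at 16.5 CPM. Cancer cells were near the foot of the Socs1 order in both tissues.

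T cells differed between the libraries in Ifngr2 above all. With 574 tumour and 3656 lymph node cells, Ifngr2 was at 8.06 CPM (3.86 to 14.8; 10 UMIs) in the tumour and 91.6 CPM (86.4 to 97.0; 1155 UMIs) in the lymph node, a log2 ratio of 3.44 (2.62 to 4.57). Ifngr2 was the 1 gene of the 9 at least 2-fold higher in lymph node T cells, where 4.93% of 5575 genes with a mean of at least 20 CPM were. With each library clustered on its own, Jak1 was past 2-fold too (1.05). At least 2-fold lower were 22.3% of all genes and, of the 9, Tyk2 (29.0 CPM in the tumour, 11.6 CPM in the lymph node, log2 ratio -1.34), while Tyk2 passed that filter only through the tumour and Ifngr2 only through the lymph node, so that neither is read against these shares. Tyk2 was within 2-fold with each library clustered on its own (-0.90) and with only clusters of at least 20 cells in both libraries (-0.89). Ifngr1, the other chain, had a log2 ratio of -0.21, which turned to 0.27 with each library clustered on its own and 0.05 with doublets kept. Jak1 had a log2 ratio of 0.65, Jak2 of -0.44 and Socs1 of 0.36, and with only clusters of at least 20 cells in both libraries Jak1 was at 0.16 and Jak2 turned to 0.95. The share of Ifngr1 among the UMIs of both chains was 98.7% in tumour and 85.0% in lymph node T cells, and 38.8% in B cells. A UMI of both chains was expected in 0.440% of tumour and 3.68% of lymph node T cells at 1000 UMIs per cell.

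The T cells of the 2 tissues were mostly of different clusters. Cluster 11, with 449 of the tumour T cells and with Cd8a, Pdcd1 and Cxcr6 among its genes, had Ifngr2 at 7.38 CPM (2.71 to 16.1; 6 UMIs) in the tumour and 28.9 CPM (3.49 to 104; 2 UMIs) in the 23 lymph node cells. Cluster 22 had it at 6.11 CPM (0.740 to 22.1; 2 UMIs) in the tumour and 20.3 CPM (12.0 to 32.0) in the lymph node. Cluster 10, with Foxp3, the factor of regulatory T cells, had it at 25.6 CPM (3.10 to 92.4; 2 UMIs) and 41.5 CPM (32.2 to 52.7). In each of these 3 clusters the intervals of the tissues overlapped. The cells of cluster 22 were not alike in the 2 tissues, with Cd8a at 489 CPM and Foxp3 at 0 in the tumour and at 77.6 and 64.1 CPM in the lymph node. The clusters with most lymph node T cells had more, at 67.3 CPM in cluster 2 (1644 cells, Cd8b1 at 304 CPM) and 194 CPM in cluster 5 (1192 cells, Cd4 at 164 CPM). With only the clusters that had at least 20 cells in both libraries, the log2 ratio of Ifngr2 was 1.98, and with each library clustered on its own 2.11. B cell markers summed to 21.4 CPM in cluster 5, and their part in its Ifngr2 level was not tested. Over all T cells, cancer markers summed to 323 CPM in the tumour and 73.0 CPM in the lymph node and erythroid markers to 1731 and 330.3 CPM, and their part in the T cell ratios was not tested.

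**Figure D5:**
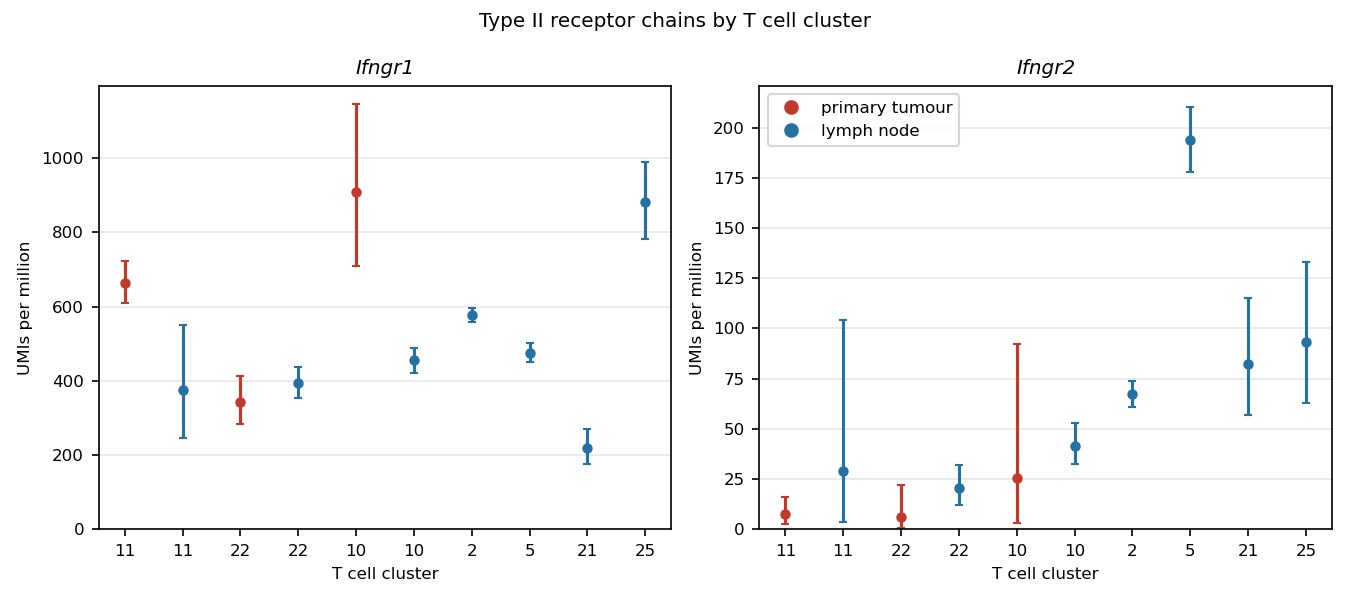
Levels (CPM, linear axes from 0, 95% counting interval) of Ifngr1 and Ifngr2 in each T cell cluster of the tumour and the lymph node library. Ifngr1 lies between 219 and 908 CPM, and Ifngr2 runs from 6.11 CPM in tumour cluster 22 to 194 CPM in lymph node cluster 5.

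In endothelial cells, of which the tumour gave 50 and the lymph node 195, 5 of the 7 genes with a mean of at least 20 CPM were at least 2-fold lower in the lymph node, where 28.9% of 6102 genes were, and 0 were higher, where 15.6% were. Jak2 and Ifnar1 passed that filter only through the tumour, so the count is not read against these shares, and Tyk2 and Socs1 did not pass it. Irf1 was at 201 CPM in the tumour and 21.5 CPM in the lymph node (log2 ratio -3.22), Jak2 at 125 and 17.6 CPM (-2.83) and Ifngr1 at 107 and 21.8 CPM (-2.30). Ifnar1 (-2.18) and Ifnar2 (-1.65) completed the 5, and Jak1 (-0.69) and Ifngr2 (-0.31) were closer. The tissues were in different clusters, as all 50 tumour cells were in cluster 28 and 191 of the lymph node cells in cluster 20, led by Glycam1 and Fut7, with 0 tumour cells. Endothelial markers were lower in the lymph node too, with Pecam1 at 954 and 143 CPM, Cdh5 at 1076 and 158 CPM and Kdr at 386 and 27.3 CPM. Cancer markers summed to 946 CPM in the tumour and 116 CPM in the lymph node endothelial cells, and their part in these ratios was not tested. Blood endothelial cells of lymph nodes were also sorted in the study, and whether any entered this library is not stated in the sources used here.

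The genes most like each of the 9 in pattern were sought over the 15 class and library groups with at least 50 cells, among 11559 genes, by Pearson's r of log levels. These correlations are descriptions, since the groups share libraries and depth. Ifnar1 was most like Clk3 (0.958), Ifnar2 like Eepd1 (0.926), Ifngr1 like Espn (0.900) and Ifngr2 like Vps11 (0.786). Among the kinases, Jak1 was most like Pacs1 (0.941), with Il2rg at 0.937, Jak2 like Vasp (0.898) and Tyk2 like Phf11b (0.934). Irf1 was most like Serinc1 (0.902), with the immediate-early gene Fosb at 0.844, and Socs1 like Aebp2 (0.918). The 2 chains of the type II receptor had a correlation of -0.43 with each other over these groups.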

How the data were processed

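Single-cell RNA was measured in 1 library per tissue. The deposited values are raw UMI counts of each gene in each cell, not normalized, aligned by the authors to GRCm38. Cell Ranger is given as 5.0.0 in the file headers and as 2.1.1 in the submitters' processing notes. The submitters' labels number both libraries as replicate 1, and no column was left unmapped.

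The 9 genes, the pathway lists, the markers and the rule for named genes were chosen with earlier results of these data known. That rule took all 9 genes and, from each pathway list, at most 4 genes with the largest absolute log2 ratio in cancer cells and a mean of at least 2 CPM. 1 gene of these lists is not reported here. The immediate-early list, the filter of 20 CPM for T and endothelial cells, the cluster sets within cancer and T cells, the scoring rule for cluster names and any gene named outside the rule were chosen after the data were seen.

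The limits on cells were over 200 and up to 6000 genes with a UMI and no more than 5% of UMIs from mitochondrial genes. Doublets were scored with Scrublet in scanpy 1.11.5 (expected rate 6%). Its threshold marked 391 tumour cells and 0 lymph node cells, so in the latter the top-scoring 616 cells were left out. After scaling to 10000 UMIs per cell, cell cycle scores were regressed out. The cells of both libraries were clustered together on 30 components and 15 neighbours (Leiden, resolution 1.0, igraph 0.11.9), leaving out the 9 genes and the pathway lists. Clusters needed at least 3 raised markers for a name, and 24 tumour and 46 lymph node cells stayed unnamed. The names were rebuilt here, since no cell type annotation was used, and no integration was done.

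UMIs were summed per class and library and divided by their total. Intervals were exact Poisson for levels, exact conditional for ratios of 2 counts, which were log2 values with 0.5 counts added, and exact Clopper-Pearson for shares of cells. They cover counting error only. Where a gene had 0 UMIs, the limit is 3 counts of the total. The deposited tables held 173317475 UMIs for the tumour and 122207852 for the lymph node. Positions come from the GENCODE annotation and upstream sequences from RefSeq, both of GRCm38. Computations used python 3.11.15, numpy 2.4.6, scipy 1.17.1 and pandas 2.3.3 and were tested on simulated data. The effect of the alternative settings on cancer and T cells is given in the closing section.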

Additional observations from a re-analysis of the deposited data

Results flagged for a closer look

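In 5 of 18 pairs of a gene and a class, the gene was higher in the lymph node in cancer cells and lower in another class, or the reverse, with both counting intervals off 0. With 1 library per tissue, these differences between classes were not tested. The share of all genes that met this rule is not given here, so the count is not read as particular to these genes. The values are log2 ratios of lymph node over primary tumour, followed by the ratio of the other class minus that of cancer cells. For T cells, Ifngr2 had 3.44 against -0.23 in cancer cells, a difference of 3.67. Socs1 had 0.36 against -1.85, a difference of 2.21, and Ifngr1 had -0.21 against 0.31, a difference of -0.52. For Ifngr2, cancer cells of cluster 7 alone gave 0.12. For Socs1, cancer cells gave -0.39 (-1.04 to 0.14) with lymph node cells of shared clusters only and -0.24 (-1.33 to 0.58) in cluster 7, intervals that span 0. The direction of Ifngr1 turned with the processing, as Ifngr1 in T cells was at 0.27 with each library clustered on its own and 0.05 with doublets kept, and in cancer cells at -0.12 with lymph node cells of shared clusters only. For endothelial cells, Ifngr1 had -2.30 against 0.31, a difference of -2.61, and Jak1 had -0.69 against 0.22, a difference of -0.91.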

How the results depend on the processing

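No paired analysis was possible because each tissue gave 1 library and no test was run. In cancer cells, the counts of 2 genes at least 2-fold lower and 0 higher in the lymph node held with doublets kept, other limits on cells, another clustering or scaling, a keratin and Epcam gate and equal depth, with Irf1 between -1.47 and -1.14 and Socs1 between -2.18 and -1.67 on the log2 scale. The median log2 ratio of the 9 genes was -0.13 when ratios were centred on the median of all genes. Of the alternatives added after the data were seen, the count at least 2-fold lower was 0 with lymph node cells of shared clusters only and 0 in cluster 7 alone, the only cancer cluster with at least 20 cells in each library. These 2 alternatives use 92 and 47 lymph node cells. Ifngr1 had a log2 ratio of -0.12 and -0.01 in them, Ifnar2 of 0.27 and 0.74, and Ifngr2 of 0.12 in cluster 7. In T cells, whose alternatives were all added after the data were seen, the ratio of Ifngr2 ranged from 1.98 to 3.73, that of Ifngr1 turned to 0.27 with each library clustered on its own and 0.05 with doublets kept, and that of Tyk2 was under 2-fold at -0.90 with the former and -0.89 in clusters with at least 20 cells in both libraries. Jak1 was at 1.05 with the former and Jak2 at 0.95 in the latter. For endothelial cells no alternative ratio was computed.

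The share of cancer cells with a UMI of both receptor chains moved with depth. Without thinning it was 11.2% in the tumour and 27.5% in the lymph node for type I, and 33.3% and 59.3% for type II. Thinned to 5000 UMIs it was 1.39% and 1.34% for type I and 7.16% and 6.87% for type II.

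Of 990 levels recomputed by class and library, 96 moved outside the counting interval. Some levels could not be computed, namely those of NK cells with doublets kept, of monocytes with doublets kept or a mitochondrial limit of 10%, and of lymph node macrophages under 4 settings, since fewer than 20 cells had that name.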
